A study of Mus musculus with 4 samples.

Results

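The genes described here are 10 mouse genes that specify the melanocyte lineage or receive its signals: the transcription factor genes Mitf, Sox10, Pax3, Tfap2a and Lef1, the receptor genes Mc1r, Kit and Ednrb, and the lineage genes Cited1 and Gpnmb. They were chosen by symbol, from every probe set annotated to 1 gene, and each gene was represented by its probe set with the highest mean. All 10 were measured, among 17097 named genes, through 18 probe sets. Expression was measured on 4 Affymetrix arrays of cultured B16F10 cells, a melanoma line that makes pigment and comes from the C57BL/6 mouse strain. Plumbagin, a plant naphthoquinone, was given at 2 µM for 24 h in 2 samples (plumbagin 1 and 2), against MilliQ water (0 µM) in 2 samples (control 1 and 2). Whether the pair of samples in each group came from separate cultures is not stated in the labels, and p-values therefore measure only the spread between these samples, which may be technical.

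Melanocytes arise from the neural crest, and MITF, a basic helix-loop-helix leucine zipper factor, is the factor on which their fate, survival and pigment genes depend. SOX10 and PAX3 bind and activate the Mitf promoter, LEF1 brings Wnt signals to it, and MC1R, the melanocortin receptor, acts on it through cyclic AMP and the cAMP response element. KIT and EDNRB, the receptors for stem cell factor and endothelins, guide melanocyte precursors and can alter MITF activity through MAP kinase signalling. The comparison asked whether transcripts of this circuit differed after plumbagin.

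The cells carried the melanocyte programme, as their label implies. All 6 melanocyte marker genes (Tyr, Tyrp1, Dct, Pmel, Mlana and Slc45a2) had means between 10.88 and 12.32 on the log2 scale, above a background level of 5.05, set at the 95th percentile over 41 odorant receptor genes, whose transcripts are not thought to be made in these cells. Of 26 markers of fibroblasts, macrophages, keratinocytes, endothelium and T cells, 3 were above it, namely Cd14, Kdr and Cd3e, with means of 5.35, 5.15 and 6.22. Of these, Cd14 had 5.36 and 5.40 on the plumbagin arrays, against 5.33 and 5.29 on the controls. Plumbagin 1 stood apart in its hybridisation spike-in controls, with a mean of 9.58 on that array, 8.67 on plumbagin 2, and 8.46 and 8.77 on controls 1 and 2. The median over all genes with a mean of 7 to 8 was -0.17 for plumbagin 1 minus control 1 and -0.00127 for plumbagin 2 minus control 2. The part of these differences in the results was not tested beyond other scalings of the arrays and leaving out each array in turn. In such bulk samples, fewer cells with a transcript and less of it per cell cannot be told apart.

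Of the 10 genes, 7 were above background (Mitf, Sox10, Pax3, Tfap2a, Mc1r, Cited1 and Gpnmb), and Lef1, Kit and Ednrb were not. Over all named genes 8637, or 50.5%, were above it. None of the 10 passed the test between plumbagin and control (limma on all named genes, adjusted p = 1 for each). In that test 0 of 17097 genes (0%) passed an adjusted p of 0.05 and 169 (0.988%) had an unadjusted p under 0.05, of which 0 were among the 10 genes. The smallest unadjusted p of the 10 was 0.351, for Tfap2a. Their median difference was 0.02 (log2), against -0.01 over all named genes, and it was -0.018 with the probe sets of each gene averaged. Both plumbagin arrays lay above both controls for 2 of the 10 genes, Tfap2a and Ednrb, where 10.2% of all genes did so. They lay below both controls for 0 of the 10, where 15.2% of all genes did. Counting only the 7 above background, 1 lay above and 0 below. Of the 8637 genes above background, 489 lay above and 1580 below. With 2 arrays against 2, an exact two-sided permutation test of a single gene cannot go below p = 0.333.

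**Figure D1:**
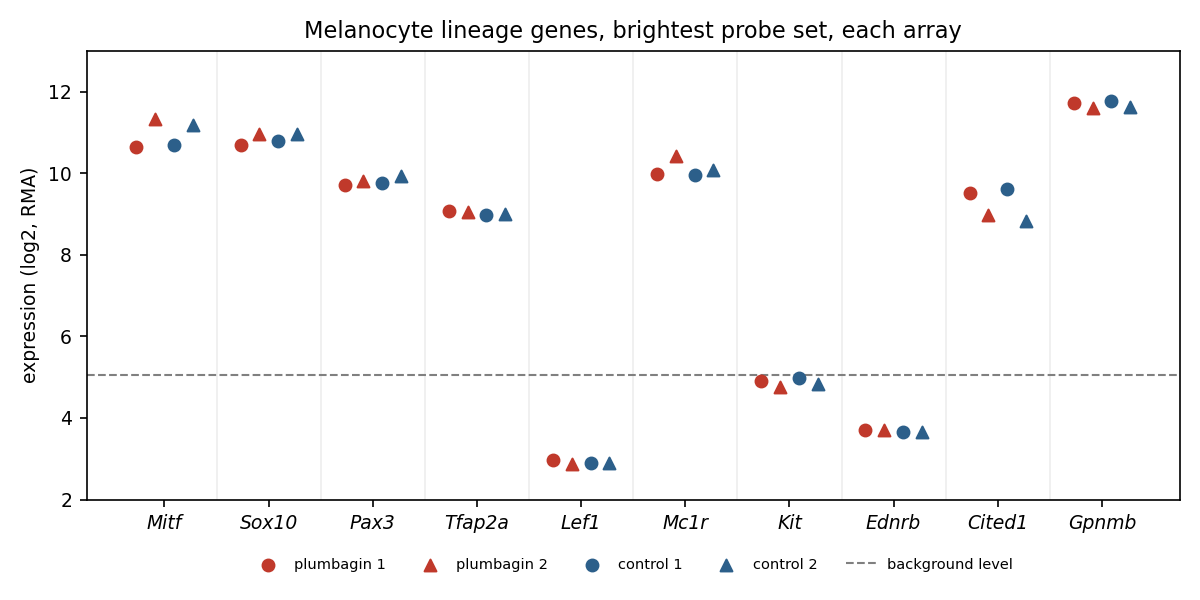
Expression of the 10 genes on each array (vertical axis, log2 RMA value of the brightest probe set), plumbagin arrays in red and control arrays in blue, circles for number 1 and triangles for number 2, with the background level of 5.05 dashed. Mitf and Cited1 separate by array number rather than by colour, and Lef1, Kit and Ednrb lie under the dashed line.

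Sox10 encodes an SRY-type factor that is required in the neural crest and activates Mitf. Its brightest probe set had log2 values of 10.68 and 10.96 on plumbagin arrays 1 and 2, against 10.80 and 10.96 on controls 1 and 2. The groups overlapped, and plumbagin 1 was the lowest of the 4. The difference was -0.06 ± 0.13 (log2, SE, n = 2 per group), with a 95% interval of -0.42 to 0.30. The second Sox10 probe set had 7.06 and 7.43 on the plumbagin arrays, against 7.54 and 7.42 on the controls. The third had 6.14 and 6.75 on the plumbagin arrays, against 6.56 and 6.79 on the controls. In all 3 probe sets plumbagin 1 was the lowest array, and plumbagin 2 differed from control 2 by no more than 0.04. The dimmer pair of probe sets differed by -0.48 and -0.43 between plumbagin 1 and control 1. The median over all genes with a mean of 7 to 8 in that pair of arrays was -0.17, and over those with a mean of 6 to 7 it was -0.14.

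Pax3 encodes a paired-box factor that acts with SOX10 on Mitf. Its brightest probe set had 9.70 and 9.80 on the plumbagin arrays, against 9.75 and 9.94 on the controls, and the groups overlapped. The difference was -0.09 ± 0.10 (log2, SE), with a 95% interval of -0.37 to 0.19. The second probe set had 8.746 and 8.997 on the plumbagin arrays, against 8.995 and 8.990 on the controls. Only the third Pax3 probe set kept its groups apart, with 8.23 and 8.24 on the plumbagin arrays, against 8.49 and 8.33 on the controls. It differed by -0.17 ± 0.09, with the smallest unadjusted p of the 18 probe sets (0.134), and an adjusted p of 1 in the limma fit over all probe sets with 1 gene. All 3 Pax3 probe sets had a negative difference, as all 3 of Sox10 did.

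Tfap2a encodes the transcription factor AP-2α, which works beside MITF at melanocyte genes. It had 9.07 and 9.06 on the plumbagin arrays, against 8.97 and 8.997 on the controls. Both plumbagin arrays were higher, with little spread within either group, and this held under each scaling tried. The difference was 0.08 ± 0.08 (log2, SE), a 1.06-fold ratio with a 95% interval of 0.916 to 1.22, and it did not pass the test. The other Tfap2a probe set, which was not above background, had 4.13 and 4.08 on the plumbagin arrays, against 4.30 and 3.98 on the controls.

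Lef1 encodes a nuclear partner of β-catenin. Its probe set had 2.96 and 2.88 on the plumbagin arrays, against 2.90 and 2.91 on the controls. All 4 values were below background, so no level of Lef1 was measured here and its difference of 0.02 ± 0.08 (log2, SE) has no reading as a change.

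Mitf is transcribed from several starts, of which the one farthest along the gene makes the melanocyte isoform. RefSeq held 3 Mitf windows in build GRCm38.p6, each of 250 bases before and 50 after a start. The melanocyte window is shown because it carries the motifs through which LEF1 and cyclic AMP signals are known to act. It lies on the plus strand at chr6:97991533-97991832, and the capitals mark CTTTGA, a TCF/LEF motif, and TGACGTCA, the cAMP response element.
Mitf melanocyte start: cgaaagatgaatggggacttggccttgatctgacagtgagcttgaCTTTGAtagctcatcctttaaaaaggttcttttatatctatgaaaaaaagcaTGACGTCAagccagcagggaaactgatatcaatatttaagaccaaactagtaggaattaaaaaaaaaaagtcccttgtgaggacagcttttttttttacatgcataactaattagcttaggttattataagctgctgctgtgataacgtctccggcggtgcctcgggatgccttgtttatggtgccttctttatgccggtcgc
CTTTGA began 205 bases and TGACGTCA 153 bases before the start. Both strands were searched for these motifs and for the E-boxes CATGTG and CACGTG, which MITF binds, and no motif overlapped another. Of 32851 windows of the same length, 16.0% held CTTTGA, 1.79% TGACGTCA, and 0.240% both. CATGTG was in 14.2% and CACGTG in 7.15%. Of the 17 windows of 8 of the 10 genes, some of them overlapping, 5 held a match to any of these motifs. The share of all windows with any match was not computed, so this count is a description only. Of the 5, those not shown are a Mitf window with CTTTGA from another start and a Lef1 window at chr3:131156044-131156343. This Lef1 window had 3 matches, CTTTGA at 180 and 120 and CACGTG at 79 bases before the start. A match describes letters and is not a measured site.

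The brightest Mitf probe set had 10.64 and 11.32 on plumbagin arrays 1 and 2, against 10.70 and 11.18 on controls 1 and 2. The number 2 array was the higher one in both groups, and the plumbagin arrays enclosed both controls. The difference was 0.04 ± 0.29 (log2, SE), with a 95% interval of -0.75 to 0.83, or 0.594-fold to 1.78-fold. This interval is among the widest of the 10, so a moderate change of Mitf in either direction was not detectable in this fit. The fit counts the spread between array numbers as error. With a block for the number the SE was 0.09, but the labels do not say what the number stands for. The second Mitf probe set had 8.24 and 8.82 on the plumbagin arrays, against 8.36 and 8.99 on the controls. Its difference was -0.15 ± 0.30, opposite in sign to the first. Both probe sets had the same order of arrays by number: plumbagin 2 exceeded plumbagin 1 by 0.68 and 0.58, and control 2 exceeded control 1 by 0.48 and 0.63. Among 329 genes with a mean of 10 to 11, 3.65% spanned a wider range over the 4 arrays than the 0.68 of Mitf.

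**Figure D2:**
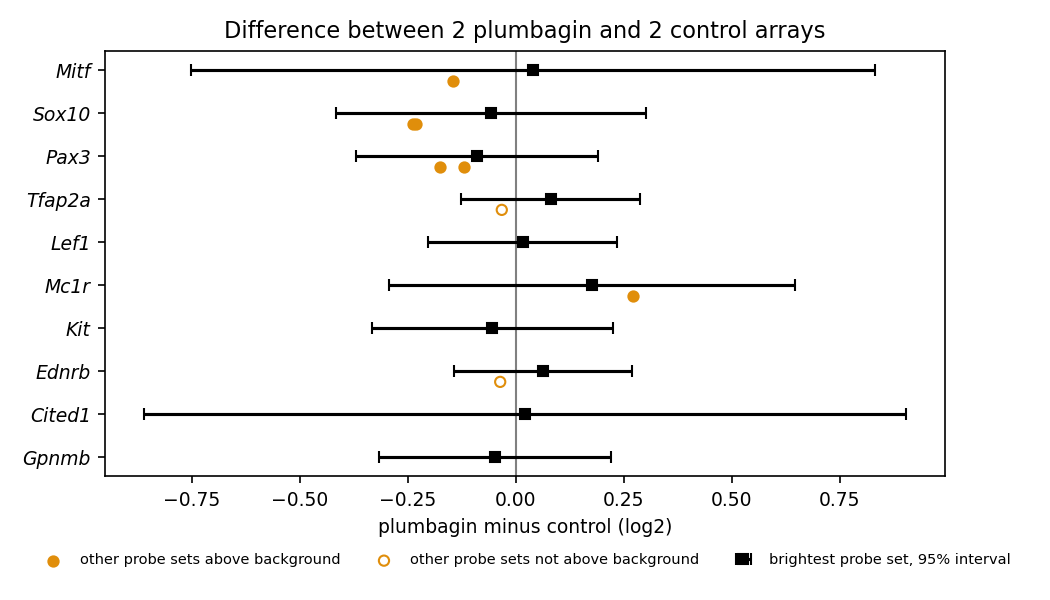
Plumbagin minus control for each gene (horizontal axis, log2). Black squares are the brightest probe set with its 95% interval, filled circles other probe sets above background and open circles those not above it. Every interval crosses 0, and those of Mitf (-0.75 to 0.83) and Cited1 (-0.86 to 0.90) are the widest.

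Mc1r encodes the receptor for melanocyte-stimulating hormone, which raises cyclic AMP. The RefSeq window at its start, on the plus strand at chr8:123406832-123407131 (GRCm38.p6), is shown because Mc1r had the largest difference in size of the 10 genes. It holds the E-box CATGTG, the motif that MITF binds, more than once, beside a CTTTGA. All 3 matches are in capitals.
Mc1r: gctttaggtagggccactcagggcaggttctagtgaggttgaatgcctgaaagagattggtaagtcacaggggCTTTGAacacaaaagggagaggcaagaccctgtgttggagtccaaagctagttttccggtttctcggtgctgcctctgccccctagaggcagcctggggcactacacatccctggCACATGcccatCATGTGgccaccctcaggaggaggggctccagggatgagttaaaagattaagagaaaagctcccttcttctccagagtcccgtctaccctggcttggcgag
The E-boxes began 62 and 51 bases before the start, the first of them read on the opposite strand. Of all 32851 windows, 14.2% held CATGTG and 2.08% held it 2 or more times.

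The brightest Mc1r probe set had 9.97 and 10.42 on the plumbagin arrays, against 9.96 and 10.07 on the controls. Plumbagin 2 was the highest array, and plumbagin 1 lay between the controls. The difference was 0.18 ± 0.17 (log2, SE), with a 95% interval of -0.29 to 0.65, or 0.816-fold to 1.57-fold. The second Mc1r probe set had 7.61 and 8.49 on the plumbagin arrays, against 7.71 and 7.85 on the controls, a difference of 0.27 ± 0.32. Both probe sets gave their highest value on plumbagin 2. The differences between plumbagin 2 and control 2 were 0.35 and 0.64, and those between plumbagin 1 and control 1 were 0.01 and -0.10. Mc1r had the largest mean difference of the 10 genes in size and depended on 1 array: without plumbagin 2 it was -0.047.

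Kit encodes the receptor tyrosine kinase for stem cell factor. It had 4.92 and 4.77 on the plumbagin arrays, against 4.97 and 4.83 on the controls, all just under the background level. Its difference was -0.05 ± 0.10 (log2, SE). Ednrb, the endothelin receptor B gene, had 3.71 and 3.72 on the plumbagin arrays, against 3.65 and 3.66 on the controls. The Ednrb arrays were apart by group, yet the gap of 0.06 ± 0.08 lay below background and did not pass the test. The other Ednrb probe set had 3.70 and 3.51 on the plumbagin arrays, against 3.69 and 3.59 on the controls, and overlapped. Of the 3 receptor genes, Mc1r alone was therefore measured above background.

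Cited1 encodes a transcriptional coactivator of the CBP/p300-interacting family, first described as a melanocyte-specific gene. Of 3 Cited1 windows in RefSeq, the one with a motif match is shown, on the minus strand at chrX:102251794-102252093 (GRCm38.p6), with its E-box CATGTG in capitals.
Cited1: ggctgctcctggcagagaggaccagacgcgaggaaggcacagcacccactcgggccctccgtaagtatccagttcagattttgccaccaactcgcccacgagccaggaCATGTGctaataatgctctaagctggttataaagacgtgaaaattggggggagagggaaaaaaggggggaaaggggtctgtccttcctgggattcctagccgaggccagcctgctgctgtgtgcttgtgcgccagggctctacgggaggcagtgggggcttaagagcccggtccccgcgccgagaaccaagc
This E-box began 142 bases before the start. Cited1 had 9.51 and 8.97 on plumbagin arrays 1 and 2, against 9.60 and 8.83 on controls 1 and 2. The number 1 array was the higher one in both groups, the reverse of Mitf. The difference between groups was 0.02 ± 0.33 (log2, SE), with a 95% interval of -0.86 to 0.90. With a block for the number the SE was 0.10. The 4 arrays spanned 0.77, the widest range of the 10 genes, and 4.95% of the 828 genes with a mean of 9 to 10 spanned more.

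Gpnmb encodes a transmembrane glycoprotein of melanosomes whose transcription depends on MITF. It had 11.71 and 11.60 on the plumbagin arrays, against 11.78 and 11.63 on the controls, and the groups overlapped. The difference was -0.05 ± 0.10 (log2, SE), with a 95% interval of -0.32 to 0.22, or 0.803-fold to 1.16-fold. A probe set shared between Gpnmb and Wdr6, not counted among the 18, had 9.83 and 9.67 on the plumbagin arrays, against 9.77 and 9.61 on the controls. Gpnmb is also made by macrophages, whose markers other than Cd14 were not above background.

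Across probe sets, 4 of the 10 genes had 2 or more above background, and 3 of these 4 (Sox10, Pax3 and Mc1r) had 1 sign in all of them. The share over all genes with several probe sets was not computed, and probe sets of a gene share the same arrays. Of the 13 probe sets above background, 5 had a positive and 8 a negative difference. Over all 17097 named genes, 7673 had a positive and 9424 a negative one. That count includes genes not above background, so the sets are not alike. No probe set passed (0 of 18, limma adjusted p over all probe sets with 1 gene). Levels were not ranked between genes, since the brightness of a probe set also depends on its probes.

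**Figure D3:**
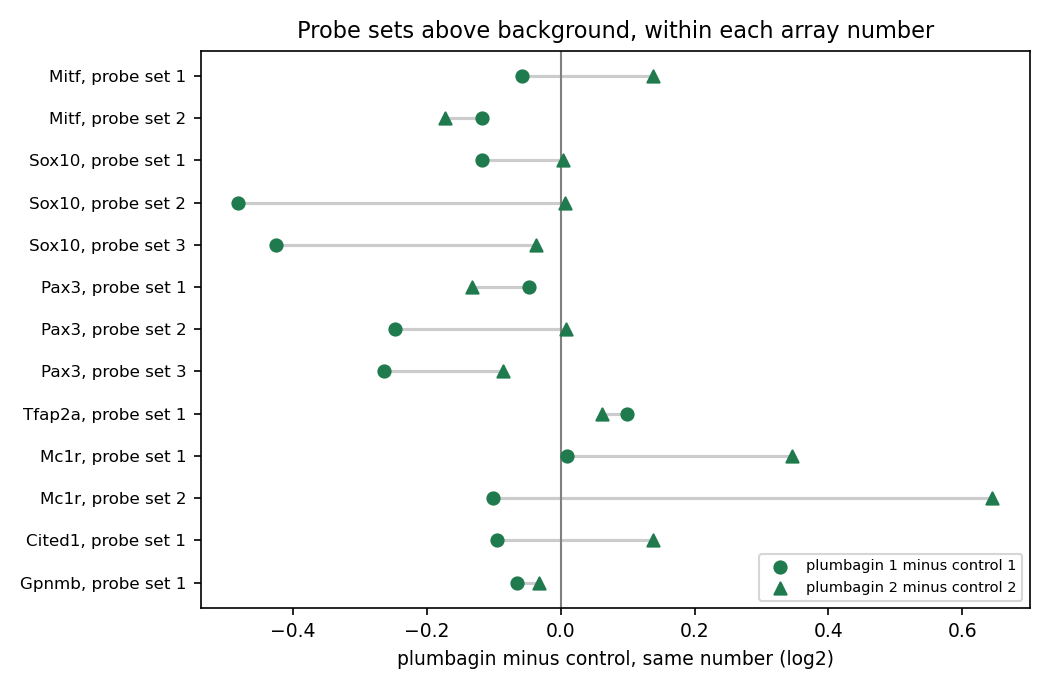
Plumbagin minus control (horizontal axis, log2) within number 1 (circles) and number 2 (triangles), for the 13 probe sets above background. Both dimmer Sox10 probe sets are at -0.48 and -0.43 in number 1 and near 0 in number 2, while both Mc1r probe sets are highest in number 2, at 0.35 and 0.64.

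The arrays also differed by number. Both number 2 arrays lay above both number 1 arrays for 4 of the 10 genes, Mitf, Sox10, Pax3 and Mc1r, where 18.9% of all named genes did so. Both lay below for 3, Cited1, Gpnmb and Kit, where 30.0% did. Counting only the 7 genes above background, 4 were higher and 2 lower in number 2, where 28.2% and 28.6% of the 8637 genes above background were. These counts use the brightest probe set of each gene. Number 2 was the higher array in both groups for 2 of 3 Sox10 probe sets above background and 1 of 3 of Pax3. The same held for 2 of 2 of Mitf and 2 of 2 of Mc1r. What the number stands for is not given in the labels, and the counts carry no test.

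Nearest to Mitf over the 4 arrays, by the distance between values centred on each gene's mean, were Ate1 (an arginyltransferase), Ank2 (an ankyrin) and S100b (a calcium-binding protein common in melanocytes), at distances of 0.037, 0.037 and 0.044 (log2). The median distance over 8382 genes was 0.62. S100b had 8.18 and 8.89 on the plumbagin arrays, against 8.22 and 8.69 on the controls. Nearest to Cited1 were Nqo2 (a quinone reductase), Ifi30 (a lysosomal thiol reductase) and Erbb3 (a neuregulin receptor of the neural crest), at 0.051, 0.054 and 0.062, against a median distance of 0.68. Erbb3 had 7.47 and 6.90 on the plumbagin arrays, against 7.58 and 6.73 on the controls. With 4 arrays this is a description of likeness only.

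Genes linked to MITF as targets were set beside the 10. Of 31 listed, 29 were measured and 26 were above background. None passed in either direction (0 higher, 0 lower), and the median difference was -0.07 (log2). All genes with means of 6 to 7, 7 to 8 and 8 to 9 had medians of -0.07, -0.08 and -0.06. Those with means of 9 to 10, 10 to 11 and above 11 had -0.037, -0.034 and -0.015. The list's genes had means from 2.84 to 12.32, so no single one of these medians stands for genes of like brightness. Without plumbagin 1 the list's median was 0.040, without plumbagin 2 -0.12, and without control 2 -0.013. It was -0.039 with quantile normalization again and -0.038 with cyclic loess. Trpm1, a cation channel gene of melanocytes, had 8.06 and 7.92 on the plumbagin arrays, against 8.31 and 8.16 on the controls. Both plumbagin arrays were below both controls, with a difference of -0.24 ± 0.10 (SE) and an unadjusted p of 0.0713 in the limma fit, adjusted p = 1. Birc7, the apoptosis inhibitor livin, differed by 0.18 ± 0.11, and by 0.068 without plumbagin 1. Mlph, the melanophilin gene of melanosome transport, differed by -0.25 ± 0.16, but by -0.041 without control 1 and by -0.46 without control 2. With probe sets averaged Mlph differed by -0.14.

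By array number, 16 of the 26 MITF-linked genes above background were higher on both number 2 arrays than on both number 1 arrays, and 5 were lower. Of all genes above background, 28.2% were higher and 28.6% were lower. Oca2 and Rab27a, chosen after their values were seen, were higher in number 2 as Mitf was. Oca2, a melanosomal transporter gene, had 7.65 and 8.51 on the plumbagin arrays, against 7.91 and 8.46 on the controls. Rab27a, a GTPase gene of melanosome transport, had 8.28 and 9.01 on the plumbagin arrays, against 8.59 and 8.95 on the controls. Mlana and Cdkn1a, also chosen after their values were seen, were higher in number 1, as Cited1 was. Mlana, a melanosomal protein gene, had 11.57 and 11.15 on the plumbagin arrays, against 11.69 and 11.09 on the controls. Cdkn1a, the CDK inhibitor p21 gene, had 8.87 and 7.76 on the plumbagin arrays, against 8.89 and 7.97 on the controls.

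**Figure D4:**
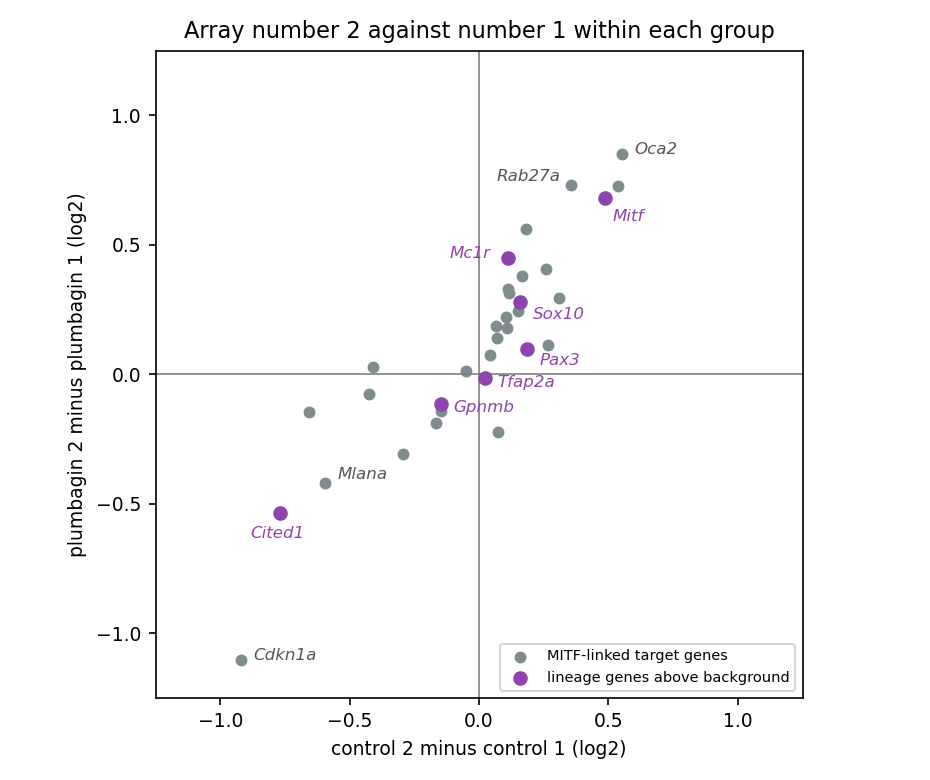
Number 2 minus number 1 (log2) in the plumbagin arrays (vertical axis) and in the control arrays (horizontal axis), for 7 lineage genes above background (purple) and 26 MITF-linked target genes (grey). Mitf, Oca2 and Rab27a lie at the upper right and Cited1, Mlana and Cdkn1a at the lower left.

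Relatives of MITF and other lineage regulators had 35 of 38 listed genes measured, 19 above background and none past the test in either direction (0 higher, 0 lower). The median difference was -0.02 (log2) and had no settled sign: it was 0.010 with quantile normalization again and with cyclic loess, 0.013 without plumbagin 2 and 0.0045 without control 1. Tfe3, a paralogue of Mitf, had 6.93 and 6.92 on the plumbagin arrays, against 7.31 and 7.10 on the controls. Both plumbagin arrays were below both controls, by -0.28 ± 0.10 (SE), with an unadjusted p of 0.0506 and an adjusted p of 1 in the limma fit. Ets2, an ETS factor gene, differed by -0.49 ± 0.20, made up of -0.85 in number 1 and -0.12 in number 2. Usf1, whose protein binds E-boxes, differed by -0.25 ± 0.11, but by -0.054 ± 0.08 with its probe sets averaged and by -0.13 without plumbagin 1. Without control 1, Tfe3 differed by -0.18 and Ets2 by -0.24.

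Ligands and signalling partners of the receptors had 28 of 32 listed genes measured, 18 above background and none past the test (0 higher, 0 lower). The median difference was -0.07 (log2), but -0.0010 without control 1, -0.012 without plumbagin 1 and -0.031 with cyclic loess. Mgrn1, a ubiquitin ligase gene of the melanocortin pathway, differed by -0.19 ± 0.09 (SE), and by -0.063 ± 0.09 with its probe sets averaged. Crtc3, a CREB coactivator gene, differed by -0.22 ± 0.11. Creb1, whose protein binds the cAMP response element, had 8.11 and 8.06 on the plumbagin arrays, against 7.62 and 8.01 on the controls. Its difference of 0.27 ± 0.15 was 0.49 in number 1 and 0.05 in number 2, and control 1 alone was low. Creb1 differed by 0.091 with its probe sets averaged and by 0.071 without control 1, and Crtc3 by -0.13 without control 1. In these 3 lists, 7 of the 9 genes named by smallest p differed by more than 3 times as much in number 1 as in number 2. Trpm1 differed by -0.25 and -0.24. The share over all genes was not computed. All genes with a mean of 7 to 8 had medians of -0.17 in number 1 and -0.00127 in number 2. Those with a mean of 5 to 6 had -0.041 and -0.0021. In number 1, Creb1 (0.49) and Birc7 (0.33) differed in the other direction. Whether the imbalance was particular to the named genes was not tested.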

How the data were processed

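RNA of B16F10 cells was hybridised to Affymetrix mouse strips, 1 sample per array. What the authors deposited was 1 log2 value for each probe set and array. The submitters' processing notes name Affymetrix Expression Console, Transcriptome Analysis Console and RMA, without versions. The last of these makes arrays alike and compresses weak signals.

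The table held 45141 probe sets, of which 28898 had 1 gene symbol, 551 several, 104 were controls and 15588 were unnamed here and not tested. Symbols were updated by Entrez number for 28689 probe sets. The brightest probe set stood for each of 17097 genes. Groups came from sample titles. Differences were fitted without covariates by lmFit and eBayes (limma 3.58.1, R 4.3.3), two-sided, with Benjamini-Hochberg adjustment over all named genes and a threshold of 0.05. The code was tested on simulated data. The number of arrays limits precision.

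The genes and lists were chosen with earlier results of these data known. Genes named were all 10, the 3 with the smallest p above background in each wider list, and the 3 nearest Mitf and the gene of widest range (Cited1), unnamed loci skipped. Exceptions are marked. Alternatives concerned probe sets, dim genes, scaling, variance model, a block for the number, and each array left out. Promoter windows are from RefSeq (GRCm38.p6), where 8 of the 10 genes matched.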

Additional observations from a re-analysis of the deposited data

How the results depend on the processing

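Under the 10 alternatives that kept all arrays, 0 genes or probe sets passed. Of 94 differences of the 10 genes computed under them, 1 changed sign: Mitf differed by -0.053 with its probe sets averaged. Only averaging and the scalings could move a difference. The filters, the variance models, the block and the fit over all probe sets leave each difference as it was, so those signs were fixed beforehand. With probe sets averaged, 0 of the 10 genes had both plumbagin arrays above both controls and 1 below. With either filter on dim genes 1 was above, since Ednrb was no longer tested. With 1 array left out, with the spread of the remaining pair used for the single array, still 0 genes passed. The 10 genes then had 3 to 5 above and 1 to 3 below, as 1 array against 2 is easier to separate. Differences ranged from -0.30 to 0.38 for Mitf, -0.20 to 0.082 for Sox10, -0.18 to 0.00248 for Pax3, -0.024 to 0.056 for Lef1, -0.047 to 0.40 for Mc1r, -0.13 to 0.019 for Kit, -0.12 to 0.026 for Gpnmb and -0.36 to 0.41 for Cited1. Tfap2a and Ednrb kept their sign without each array in turn (0.07 to 0.09 and 0.06). Both plumbagin arrays lay above both controls for these genes, so leaving out 1 array could not have changed the sign. The median difference of the 10 genes turned to -0.018 with probe sets averaged, and lay between 0.016 and 0.030 under the other alternatives that kept all arrays and between 0.014 and 0.021 without each array in turn. Medians of the wider lists ranged, without each array, from -0.12 to 0.040 for MITF-linked targets, -0.029 to 0.013 for lineage regulators and -0.098 to -0.0010 for receptor partners. The 9 genes named from these lists kept their sign with probe sets averaged and under each scaling. Their groups did not overlap, so leaving out 1 array could not have changed a sign.

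Samples of the 2 groups share numbers, and deviations from the group means correlated at 0.54 over genes between equal numbers, with 2 pairs only, which gives a hint and no pairing. With the replicate block 0 genes passed an adjusted p of 0.05, as without it, and 434 had an unadjusted p under 0.05.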
